A study of Homo sapiens with 12 samples.

Results

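The effect of depleting CHD8 in progestin-treated breast cancer cells was described by comparing 3 arrays of siCHD8 cells with 3 arrays of siCt cells, both treated with R5020, which are 6 of the 12 arrays of the series. T47D-MTVL is a line derived from the luminal breast cancer line T47D that carries a single integrated copy of the MMTV promoter, and it was used here as 1 cell line. Cells received a control siRNA (siCt) or an siRNA directed against CHD8 (siCHD8), were kept without serum for 48 h, and were then given 10 nM R5020, a synthetic progestin, or its vehicle ethanol (EtOH) for 6 h. Depletion was thus made with 1 siRNA sequence, so on these arrays an effect of CHD8 loss and an effect of that siRNA on other transcripts cannot be told apart. For the hormone-induced genes that it followed by RT-qPCR, the study reported similar effects with another siRNA against CHD8. The labels call the 3 arrays of a condition biological replicates, and RNA was hybridised to Affymetrix gene arrays whose probes lie along the whole transcript. All 21214 probe sets with a gene symbol were compared, with a model fitted to all 12 arrays.

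CHD8 is an ATP-dependent chromatin remodeler of the CHD family, which moves nucleosomes and is found at promoters of transcribed genes. It is known as a partner of beta-catenin, p53 and the insulator protein CTCF, and for its role at genes that E2F transcription factors switch on as cells enter S phase. R5020 acts through the progesterone receptor, a nuclear receptor that binds DNA once it holds its ligand and recruits remodelers and coactivators to enhancers. The comparison asked which transcripts had a different level in cells with less CHD8 when the hormone was present.

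Pearson correlations of arrays over probe sets were 0.994 to 0.996 within the R5020 conditions and 0.991 to 0.994 between them. Within all 4 conditions, EtOH included, they went down to 0.989, below the lowest between the R5020 conditions. The median intensities of the 12 arrays were 4.52 to 4.62 on the log2 scale. The luminal markers ESR1, PGR, GATA3, FOXA1, KRT8, KRT18, KRT19 and EPCAM read 6.32 to 11.2 on the 6 R5020 arrays. The 8 markers of fibroblasts, leukocytes, red cells and endothelium read 1.09 to 5.48, with COL1A1 the brightest and PTPRC the dimmest. None of the 16 passed the test, with adjusted p of 0.0941 (PGR) or more.

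CHD8 itself was lower in the siCHD8 cells. Its probe set read 5.52, 5.24 and 5.29 in siCt cells with R5020 and 4.77, 4.62 and 4.81 in siCHD8 cells with R5020, on the log2 intensity scale. All 3 siCHD8 arrays lay below all 3 siCt arrays. The difference was -0.62 (SE 0.13), a level of 65.3% of siCt, and its adjusted p of 0.0627 did not pass 0.05 with R5020 alone. With EtOH the difference was -0.58 (SE 0.13, adjusted p = 0.0711), and averaged over both treatments, 6 arrays against 6, it was -0.60 (SE 0.09, adjusted p = 0.00403). An exact two-sided permutation test of the siRNA labels within treatment gave p = 0.005, the smallest that its 400 arrangements allow. The same exact permutation test within R5020 gave p = 0.1, the smallest that 20 arrangements allow.

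A small set of genes passed the test with R5020. Of the 40, 33 were lower and 7 higher in siCHD8 cells, at a Benjamini-Hochberg adjusted p under 0.05 (limma). All 40 changed by 0.56 to 1.02 on the log2 scale. They were 0.189% of the 21214 probe sets tested, the lower ones 0.156% and the higher ones 0.033%. In all 40 the arrays of the 2 conditions did not overlap. Over all probe sets, 15.3% had the siCHD8 arrays below the siCt arrays and 12.3% above. The 40 were chosen on these same arrays, so their lack of overlap is no added support. Under stricter limits, 0.01 for the adjusted p and 1.5 for the fold, 2 genes were left, SERPINA6 and NREP. These limits are those that the study set for the hormone response of siCt cells, carried over here to the siRNA comparison. At an unadjusted p under 0.05, 1628 probe sets were lower and 1324 higher, 13.9% of those tested in all. The number called moved with single arrays. Leaving out any of the 6 R5020 arrays left 1 to 4 calls, and leaving out SiCHD8_EtOH replicate 1 or SiCt_EtOH replicate 3, which do not enter the difference but enter the estimate of spread, gave 105 or 86. A fit of the 6 R5020 arrays alone called 204 probe sets, 166 lower and 38 higher, 38 of the 40 among them.

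**Figure D1:**
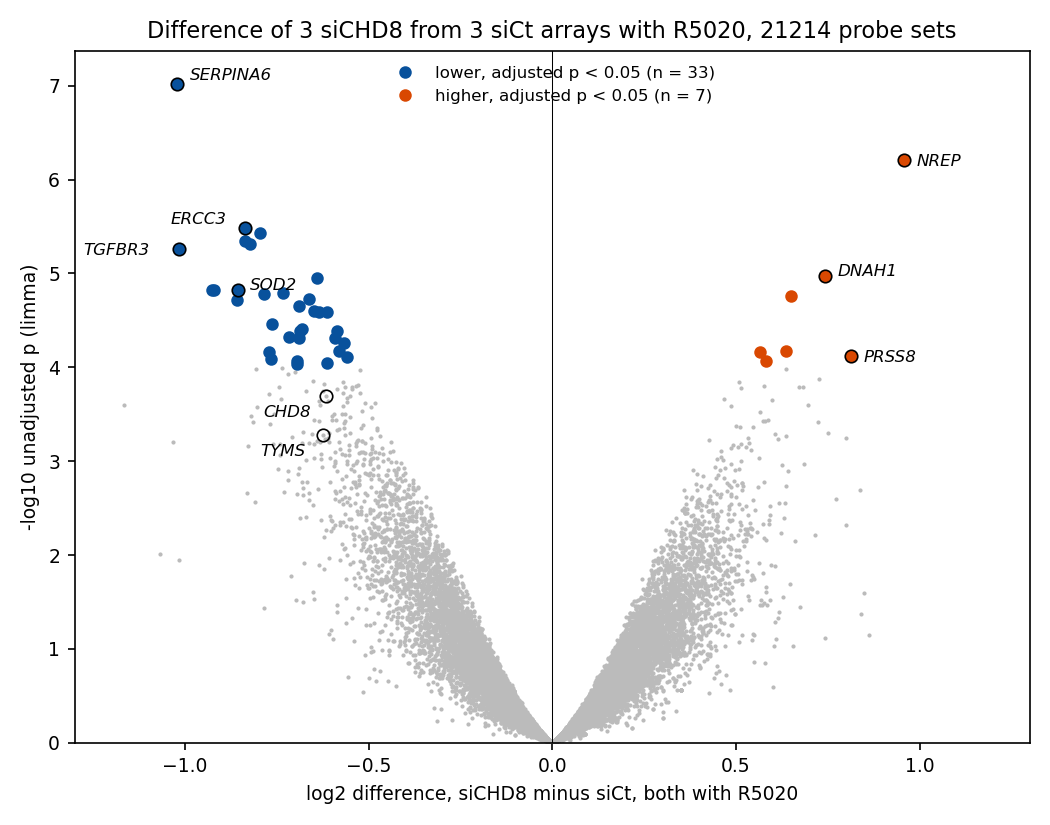
Log2 difference of siCHD8 from siCt with R5020 (horizontal axis) against -log10 of the unadjusted limma p (vertical axis) for 21214 probe sets, 1 point each. Blue points are the 33 lower and orange points the 7 higher at an adjusted p under 0.05, grey points the rest, and open circles mark named genes; SERPINA6 and NREP stand highest, while CHD8 and TYMS lie below the called points.

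SERPINA6 had the lowest p of all probe sets. It encodes corticosteroid-binding globulin, the plasma protein that carries cortisol and also binds progesterone. It read 9.69, 9.83 and 9.60 in siCt cells with R5020 and 8.62, 8.66 and 8.78 in siCHD8 cells. The gap between the 2 conditions was several times the spread within either. SERPINA6 was 2.03-fold lower (log2 difference -1.02, SE 0.11, adjusted p = 0.00202). With EtOH the difference was -1.04 (adjusted p = 0.00152). That difference comes from other arrays, but its p does not stand apart from the R5020 arrays, which enter the estimate of spread. In a fit of the EtOH arrays alone SERPINA6 was not called. In siCt cells R5020 itself lowered SERPINA6 by a log2 change of -0.47, and in siCHD8 cells the change was -0.45. With R5020, SERPINA6 kept its call in each of 21 settings tried, alternatives and left-out arrays together, with differences of -1.08 to -0.96.

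NREP showed the largest rise. It encodes a small neuronal regeneration-related protein that has been linked to TGF-beta production. NREP read 5.90, 5.83 and 6.04 in siCt cells with R5020 and 6.81, 6.86 and 6.97 in siCHD8 cells. The conditions did not overlap, and NREP was 1.94-fold higher (log2 difference 0.96, SE 0.12, adjusted p = 0.00648). With EtOH it was higher by 0.72 (adjusted p = 0.0173). R5020 lowered NREP in both, by a log2 change of -0.82 in siCt cells and -0.58 in siCHD8 cells. The call was lost without SiCt_R5020 replicate 1 (difference 0.95, adjusted p = 0.0737) and without SiCHD8_R5020 replicate 3 (0.92, adjusted p = 0.0565).

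**Figure D2:**
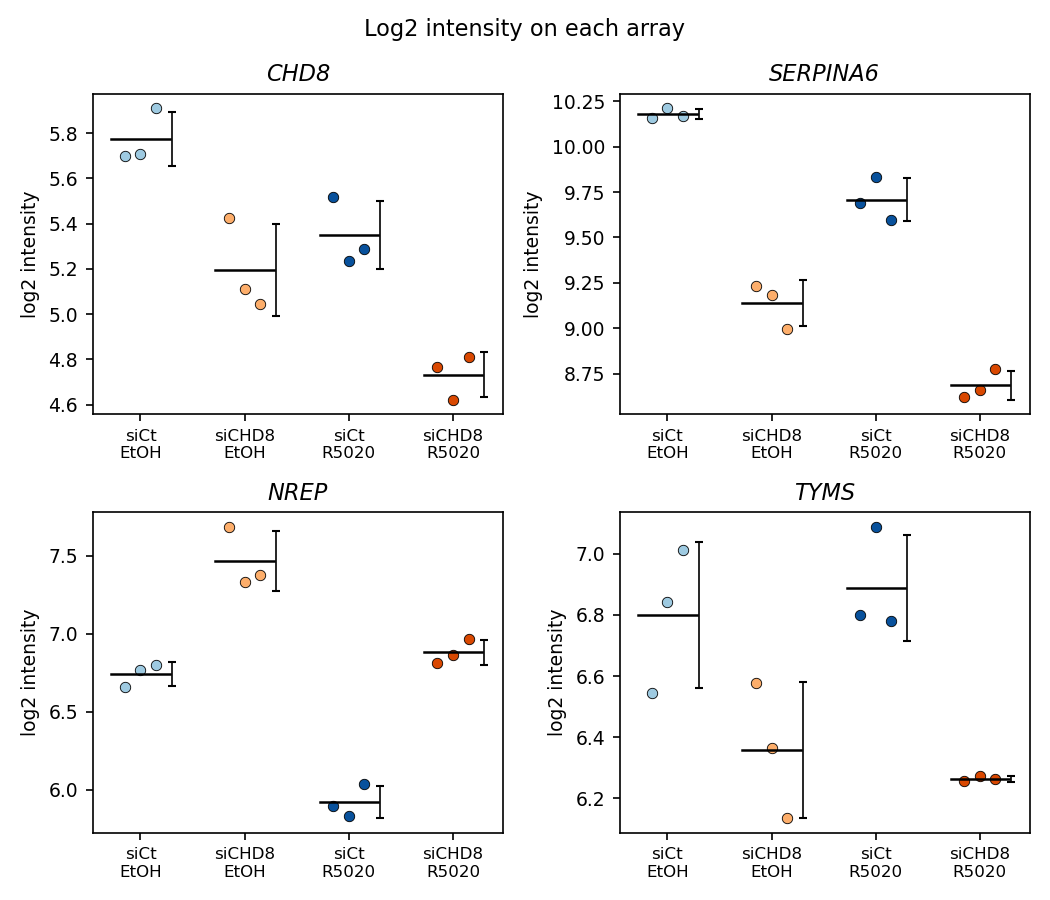
Log2 intensity (vertical axis, not starting at 0) of CHD8, SERPINA6, NREP and TYMS on each of the 12 arrays, by condition (horizontal axis); points are arrays, lines the means of 3 and bars the SD. In R5020 the 3 siCHD8 arrays lie below the 3 siCt arrays for CHD8, SERPINA6 and TYMS, and above them for NREP; with EtOH, TYMS overlaps.

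The promoter windows of these 2 genes are shown because they are the pair that passed the stricter limits. Each window runs from 250 bases before to 50 bases after the start of the gene (RefSeq, GRCh38.p14), is written on the gene's own strand, and carries CCAAT, read on either strand, in capitals. SERPINA6 lies on the minus strand, at chr14:94323287-94323586, and NREP on the minus strand, at chr5:111976883-111977182.
SERPINA6: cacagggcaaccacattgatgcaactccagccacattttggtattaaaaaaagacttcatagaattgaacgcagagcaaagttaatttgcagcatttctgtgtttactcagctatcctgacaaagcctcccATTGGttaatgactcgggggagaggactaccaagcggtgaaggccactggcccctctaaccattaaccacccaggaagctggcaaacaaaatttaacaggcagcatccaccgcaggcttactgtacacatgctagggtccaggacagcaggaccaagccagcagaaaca
NREP: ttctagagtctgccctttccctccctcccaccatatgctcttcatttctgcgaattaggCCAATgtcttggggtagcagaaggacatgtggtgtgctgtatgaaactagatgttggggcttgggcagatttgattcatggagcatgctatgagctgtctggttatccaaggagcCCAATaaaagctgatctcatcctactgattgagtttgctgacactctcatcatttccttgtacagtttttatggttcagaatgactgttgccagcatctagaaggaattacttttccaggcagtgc
The SERPINA6 window holds CCAAT at 1 place, in reverse, and the NREP window at 2. Neither holds GGGCGG, the letters of a GC box, or AGAACA, the hexamer that each partner of a progesterone receptor dimer can bind.

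The other 6 genes that rose are described by what their products do, an order set after the calls were known, and no such group was tested. PRSS8, which encodes the membrane-bound serine protease prostasin, read 7.16, 7.01 and 6.94 in siCt and 7.92, 7.78 and 7.85 in siCHD8 (difference 0.81, SE 0.15, adjusted p = 0.0469). STX3, a syntaxin of the apical membrane, rose from 7.09, 7.12 and 7.07 to 7.67, 7.78 and 7.78 (0.65, SE 0.10, adjusted p = 0.0237). MUC19, a gel-forming mucin, read 2.77 ± 0.23 (SD, n = 3) against 3.41 ± 0.09 (0.64, adjusted p = 0.0443). In PRSS8, STX3 and MUC19 the siCHD8 arrays lay above the siCt arrays, and MUC19 stayed dim in both conditions. DNAH1, a heavy chain of the inner dynein arm of cilia, rose by 0.74 (adjusted p = 0.0237), CRYM, which binds thyroid hormone, by 0.58 (adjusted p = 0.048), and MLPH, an adaptor that ties Rab27a vesicles to myosin, by 0.57 (adjusted p = 0.0443).

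Among probe sets that read higher without passing the test, with non-overlapping arrays, the 8 of lowest p were taken next. They were DNAJB9 (0.64, adjusted p = 0.0514), an endoplasmic reticulum chaperone, IGFALS (0.73), CREBRF (0.68), GPNMB (0.67), PNPLA7 (0.58), EFNB3 (0.52) and UNKL (0.51), each with an adjusted p of 0.0582, and TBX19 (0.47, adjusted p = 0.0643).

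Among the 33 lower genes, TGFBR3, LIFR, SOD2, PDE5A and RASGRP1 were genes that R5020 raised in siCt cells. TGFBR3, the TGF-beta co-receptor betaglycan, read 3.84, 3.41 and 3.95 in siCt with R5020 and 2.62, 2.92 and 2.59 in siCHD8. The lowest siCt array stood above the highest siCHD8 array, and both conditions were dim. The difference was -1.02 (SE 0.15, adjusted p = 0.0165) with R5020 and 0.09 with EtOH. R5020 changed TGFBR3 by 1.47 in siCt cells (adjusted p = 4.7e-06) and by 0.37 in siCHD8 cells (adjusted p = 0.141), comparisons that share the R5020 arrays with the one above.

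LIFR, the receptor of leukemia inhibitory factor, pairs with IL6ST in the cell membrane. It read 4.14, 4.31 and 4.38 in siCt with R5020 and 3.83, 3.23 and 3.46 in siCHD8. The difference was -0.77 (SE 0.14, adjusted p = 0.0443), whereas with EtOH it was 0.48 (adjusted p = 0.172), with 2.92, 3.11 and 2.94 in siCt and 3.62, 3.37 and 3.41 in siCHD8. The 2 conditions did not overlap in either treatment, and their order was opposite. LIFR had the lowest p of all probe sets for the difference between the siRNA effects (-1.25, SE 0.20, adjusted p = 0.356), which did not pass. The hormone change of LIFR was 1.28 in siCt cells and 0.04 in siCHD8 cells.

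SOD2, the manganese superoxide dismutase of mitochondria, read 6.67, 6.69 and 6.70 in siCt with R5020 and 5.68, 5.91 and 5.90 in siCHD8. It fell by 0.86 on the log2 scale (SE 0.14, adjusted p = 0.0237), with a difference of -0.10 with EtOH and hormone changes of 2.20 in siCt and 1.43 in siCHD8. PDE5A, the phosphodiesterase that degrades cyclic GMP, read 3.92, 3.95 and 4.21 against 3.18, 3.33 and 3.19 (-0.80, adjusted p = 0.0165). RASGRP1, an exchange factor that activates Ras, read 4.93, 4.82 and 4.93 against 4.36, 4.09 and 3.93 (-0.76, adjusted p = 0.0333). In these 3 genes the siCHD8 arrays with R5020 lay between the siCt arrays with R5020 and all the EtOH arrays. Hormone changes were 1.58 in siCt and 1.02 in siCHD8 for PDE5A, and 1.83 and 1.16 for RASGRP1. Of the 40 called genes, 11 were raised and 11 lowered by R5020 in siCt cells at an adjusted p under 0.05, and 18 did not pass; no count is read from this, since the siCt R5020 arrays enter both comparisons.

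**Figure D3:**
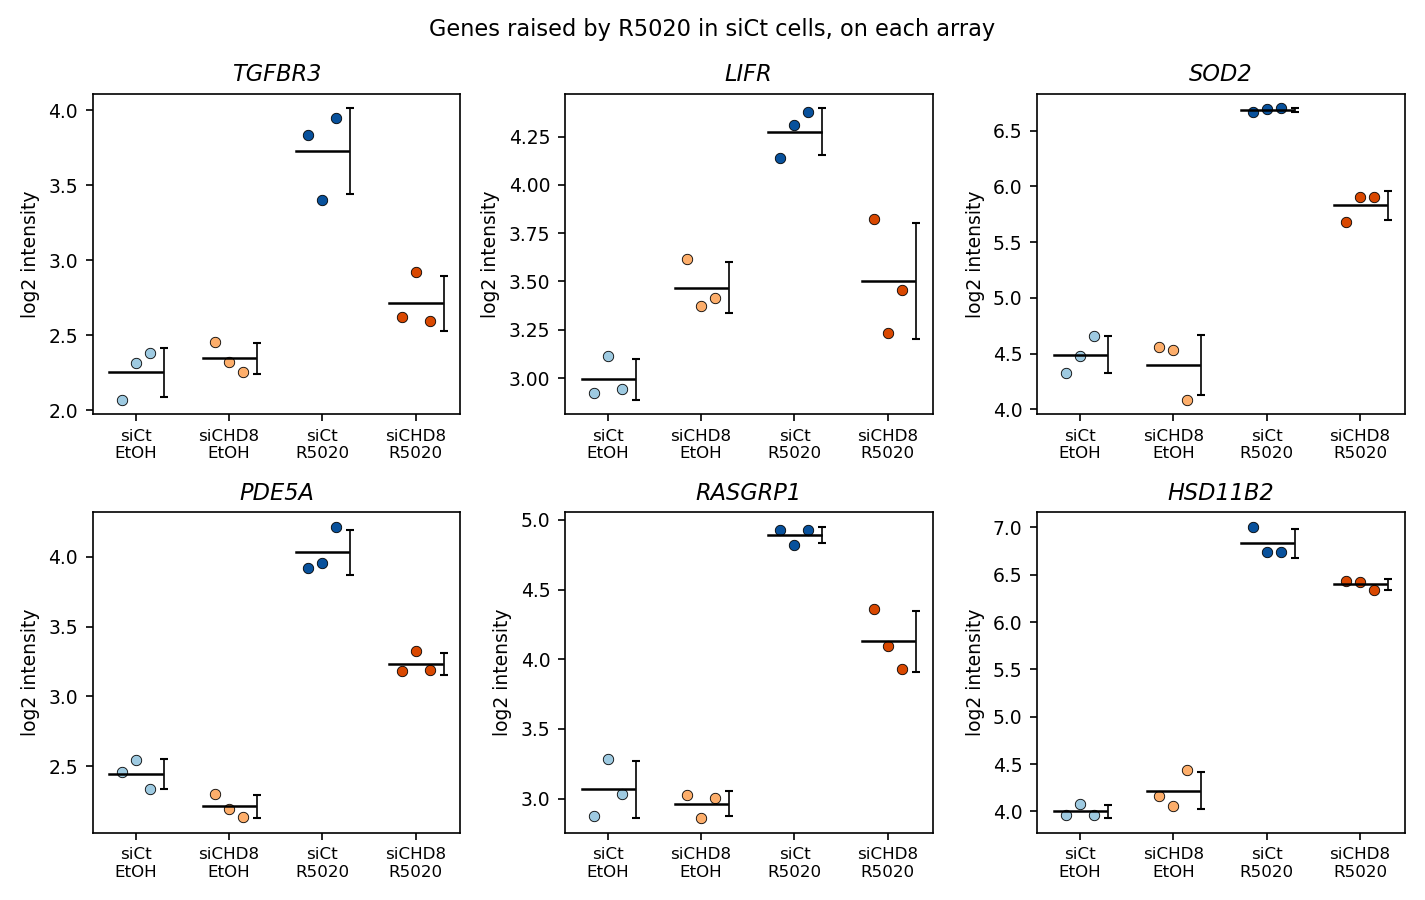
Log2 intensity (vertical axis, not starting at 0) of 6 genes that R5020 raised in siCt cells, on each of the 12 arrays by condition (horizontal axis); points are arrays, lines the means of 3 and bars the SD. With R5020 the siCHD8 arrays lie below the siCt arrays in all 6 panels. The genes other than HSD11B2 were chosen because they were called lower in this comparison, so their order is no further evidence. HSD11B2 (adjusted p = 0.139) did not pass the test.

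The other lower genes are ordered by what their products do, an order set after the calls were known, and no such group was tested. ERCC3, the XPB helicase of the transcription and repair factor TFIIH, read 6.52, 6.26 and 6.33 in siCt with R5020 and 5.49, 5.48 and 5.63 in siCHD8 (-0.84, SE 0.12, adjusted p = 0.0165). It was also lower with EtOH (-0.59, adjusted p = 0.0498). DHX29, a helicase of translation initiation, read 7.02, 6.84 and 6.94 against 6.06, 6.13 and 6.04 (-0.86, adjusted p = 0.0237). TYW2, an enzyme that modifies phenylalanine tRNA, read 4.69, 4.66 and 4.74 against 3.83, 3.91 and 3.83 (-0.84, adjusted p = 0.0165). The spread within a condition was small beside the gap in all 3.

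LDAH, a hydrolase of lipid droplets, read 4.41, 4.21 and 4.35 against 3.10, 3.33 and 3.75 (-0.92, adjusted p = 0.0237). RNF152, a ubiquitin ligase of the lysosome, fell by 0.82 on the log2 scale (adjusted p = 0.0165), and R5020 lowered it in both siCt (-1.32) and siCHD8 cells (-1.98). The choline transporter SLC44A1 differed by -0.73 (adjusted p = 0.0237), the serotonin transporter SLC6A4 by -0.70 (adjusted p = 0.0487) and the vitamin C transporter SLC23A1 by -0.66 (adjusted p = 0.0237). VPS35L, a subunit of the retriever complex of endosomes (-0.56), STARD3NL, which tethers endosomes to the endoplasmic reticulum (-0.61), and TMEM129, a ubiquitin ligase of the endoplasmic reticulum (-0.58), had smaller differences.

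PPP3CA, the catalytic subunit of calcineurin, read 8.14, 8.17 and 8.22 against 7.62, 7.49 and 7.50 (-0.64, adjusted p = 0.0237). NEO1, a receptor of netrin and repulsive guidance molecules, differed by -0.65, PLCE1, a phospholipase C that Ras controls, by -0.59, GNG11, a gamma subunit of G proteins, by -0.69, and the secreted FSTL1 by -0.68. BARX2, a homeobox factor, differed by -0.59, and SEPTIN8, a septin of the cytoskeleton, by -0.61. FGFBP2 (-0.92), ROPN1L (-0.78), C5orf63 (-0.77), GLIPR1 (-0.72), LRRC46 (-0.69), C12orf75 (-0.69), CDC20B (-0.69), SLC35E3 (-0.64) and PTGFRN (-0.57) complete the 33. The 18 called genes past the 15 largest falls were named after their values were seen, to account for every gene called.

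The EtOH arrays served as the nearest comparison, since they share no array with the R5020 ones. The estimate of spread, and so the p-values, did draw on the arrays of both treatments. There 62 probe sets passed (24 higher, 38 lower, 0.292% of those tested). A fit of the 6 EtOH arrays alone called 0 (limma; 1638 at an unadjusted p under 0.05). Leaving out 1 of the 12 arrays gave 53 calls without SiCHD8_EtOH replicate 3 and 12 to 38 without any other, the lowest without SiCt_EtOH replicate 1. Of the 40 genes called with R5020, 37 had the same sign with EtOH, and 10 passed in both, each with the same sign, which is 25% of the R5020 calls and 16.1% of the EtOH calls. The 10 were SERPINA6, ERCC3, ROPN1L, C12orf75, CDC20B and SLC23A1, lower, and NREP, DNAH1, STX3 and CRYM, higher. In 29 of the 40 the EtOH arrays were also apart in the same direction, against 8.72% of all probe sets tested. These 2 shares are not alike. The scatter of the EtOH arrays entered the choice of the 40, and 16 and 13 of them lay in the 2 brightest quintiles of mean intensity. The 8.72% was matched for neither. LIFR, TGFBR3 and SLC6A4 had the opposite sign, and the last of these differed by 0.01. The median difference of the 33 lower genes was -0.70 with R5020 and -0.36 with EtOH, that of the 7 higher genes 0.65 and 0.58. The differences were smaller with EtOH for 35 of the 40, and likewise smaller with R5020 for 57 of the 62 genes called with EtOH, each set having been chosen on its own arrays.

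**Figure D4:**
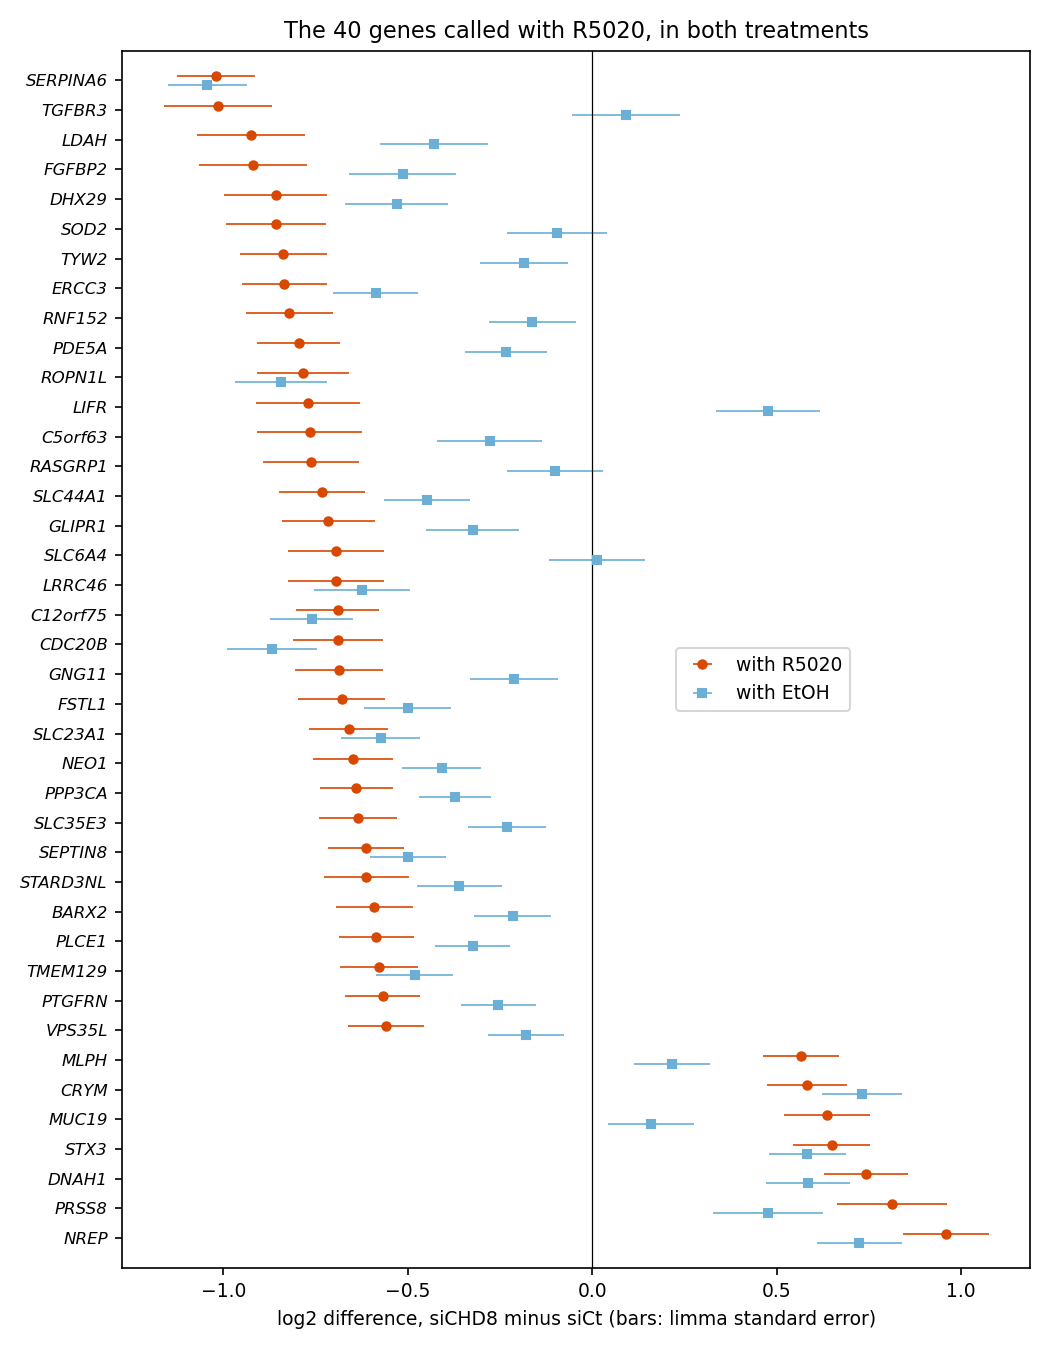
Log2 difference of siCHD8 from siCt (horizontal axis) for the 40 genes called with R5020 (rows), with R5020 as orange circles and with EtOH as blue squares; bars are limma standard errors. SERPINA6, ROPN1L, C12orf75 and CDC20B lie as far from 0 with EtOH as with R5020, whereas TGFBR3, LIFR and SLC6A4 lie on the other side of 0 with EtOH.

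No probe set passed a test of the difference between the siRNA effects with R5020 and with EtOH (limma, lowest adjusted p 0.356). At an unadjusted p under 0.05, 2027 did, 9.56% of those tested. Calls in 1 treatment and not the other are thus not shown to differ. The 5 of lowest p were LIFR, the pseudogene AMZ2P1, TGFBR3, RRAGD, a Rag GTPase that signals amino acids to mTORC1, and MIIP. RRAGD was higher in siCHD8 cells with EtOH (0.79, adjusted p = 0.00401), where it read 5.89, 5.84 and 5.90 against 6.66, 6.67 and 6.65, and differed by 0.12 with R5020 (adjusted p = 0.586). AMZ2P1 differed by -0.44 with R5020 and 0.38 with EtOH, and MIIP by 0.40 and -0.40; neither passed in either treatment. Averaging the siRNA effect over both treatments called 373 probe sets, 294 lower (1.39% of those tested) and 79 higher (0.372%), and 38 of the 40 were among them, all but LIFR and SLC6A4.

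Genes in lists of the cell division cycle read mostly lower with R5020, although no member passed the test alone. These lists were chosen with earlier results of these data known, so their counts are no independent evidence about the cell cycle. With EtOH, 2 members passed, CDC45, a part of the replicative helicase (-0.59, adjusted p = 0.0498), and CDC20, an activator of the anaphase-promoting complex (-0.56, adjusted p = 0.0498), both lower. They were 1 of 38 E2F, G1/S and replication genes and 1 of 25 mitosis genes, with 0 of 22 nucleotide synthesis genes. Of all probe sets, 0.292% were called with EtOH, either way, and a fit of the EtOH arrays alone called 0. E2F factors and the cyclins, origin factors and helicases they switch on prepare and start DNA replication, nucleotide synthesis supplies its precursors, and mitotic kinases and motors divide the chromosomes. Of 25 mitosis genes measured, 25 were below 0, with a median of -0.38. Of 38 E2F, G1/S and replication genes, 37 were below 0 (median -0.28), and of 22 nucleotide synthesis genes, 22 were (median -0.25). The median of all probe sets tested was 0.01. Members at an unadjusted p under 0.05 and lower were 16 of 25, 21 of 38 and 10 of 22, against 7.67% of all probe sets and 12.3% of those in the 2 brightest quintiles of mean intensity. The 3 siCHD8 arrays lay below the 3 siCt arrays for 20 (80%), 23 (60.5%) and 14 (63.6%) of them, against 15.3% of all probe sets. Other lists also had high shares, 55.6% for ribosomal proteins and 52.4% for cholesterol and fatty acid synthesis. SWI/SNF subunits were at 27.8% and luminal markers at 15%.

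Brighter probe sets as a whole read lower in siCHD8 cells with R5020, and these lists are bright. By quintiles of mean intensity, from dim to bright, the median difference was 0.05, 0.09, 0.03, -0.05 and -0.07, and the share with the 3 siCHD8 arrays below was 2.62, 5.02, 13.6, 24.7 and 30.7%. Over the 2 brightest quintiles, which hold 21 of the 25 mitosis genes, 27 of the 38 E2F genes and 22 of the 22 nucleotide genes, the median was -0.06 and the share 27.7%. The part of brightness in the lists' values was not tested beyond this. Over the alternatives and left-out arrays the mitosis median was -0.40 to -0.30, the E2F median -0.32 to -0.25 and the nucleotide median -0.27 to -0.19.

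The mean of the 25 mitosis genes on each array was 6.56 to 6.67 in siCt with R5020 and 6.22 to 6.31 in siCHD8 with R5020, without overlap. With EtOH it was 6.31 to 6.70 in siCt and 6.24 to 6.58 in siCHD8, with overlap. The E2F list ran from 6.13 to 6.24 against 5.89 to 5.96 with R5020, and the nucleotide list from 7.06 to 7.12 against 6.82 to 6.87. With EtOH the medians over genes were -0.15 (mitosis), -0.16 (E2F) and -0.15 (nucleotide synthesis).

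AURKA, the Aurora A kinase of the spindle poles, had the lowest p of the mitosis genes. It read 7.20, 6.96 and 7.10 in siCt with R5020 and 6.47, 6.50 and 6.38 in siCHD8 (-0.63, SE 0.13, adjusted p = 0.0646), and with EtOH differed by -0.15. TYMS, the thymidylate synthase that makes dTMP for DNA, read 6.80, 7.09 and 6.78 against 6.26, 6.27 and 6.26 (-0.63, SE 0.14, adjusted p = 0.0899), with -0.44 with EtOH. Arrays of the 2 conditions did not overlap for either gene, and neither passed with R5020. CCNE2, cyclin E2 of the G1/S transition, read 7.79, 7.70 and 7.57 against 7.21, 7.22 and 7.09 (-0.52, adjusted p = 0.0725). POLA1, the catalytic subunit of DNA polymerase alpha (-0.58, adjusted p = 0.0831), GINS1, a subunit of the replicative helicase complex (-0.53, adjusted p = 0.0925), E2F7, a repressor of the E2F family (-0.43, adjusted p = 0.128), RRM2 (-0.42) and RRM1 (-0.32), the subunits of ribonucleotide reductase, and TK1 (-0.37), thymidine kinase, were among the next. In mitosis CCNB2 (-0.39), CDC20 (-0.39) and TPX2 (-0.40) followed AURKA. Averaged over both treatments, CCNE2, E2F7, CDC45, TYMS, DUT, IMPDH2, AURKA and CDC20 passed, each lower, by -0.34 to -0.53. They were 3 of 38 genes of the E2F list, 3 of 22 of the nucleotide list and 2 of 25 of the mitosis list. Of all probe sets, 1.39% were called lower in the average, which includes the R5020 arrays.

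**Figure D5:**
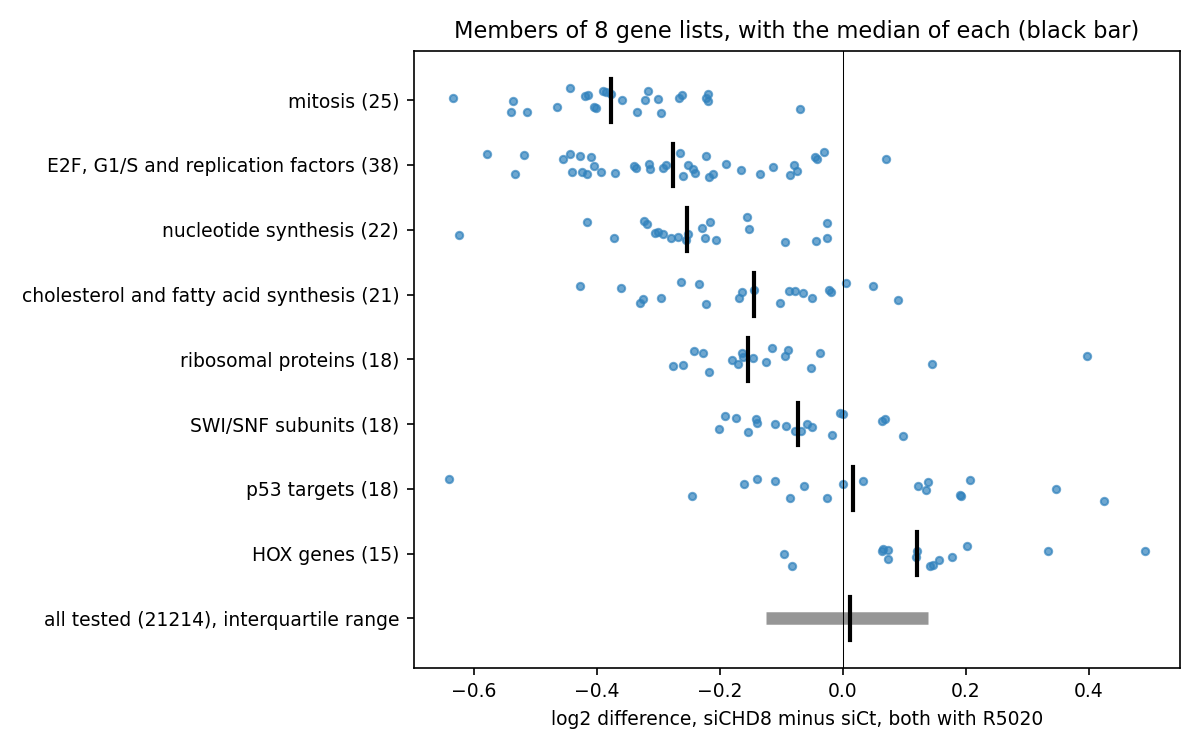
Log2 difference of siCHD8 from siCt with R5020 (horizontal axis) for the members of 8 gene lists (rows, number measured in brackets); points are genes, black bars the list medians, and the grey bar the interquartile range of all 21214 probe sets. Mitosis (median -0.38), E2F and replication (-0.28) and nucleotide synthesis (-0.25) lie left of 0, HOX genes (0.12) to the right.

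Letters of the kind E2F factors bind were searched in the same promoter windows. The octamers TTTGGCGC, TTTCGCGC and TTTCCCGC, on either strand, were found in 19 of the 33 promoters of the E2F list (57.6%), 2 of 19 of the nucleotide list (10.5%) and 2 of 21 of the mitosis list (9.52%), against 3.84% of 14237 promoters of genes on the array. CCAAT was found in 17 of 21 promoters of the mitosis list (81%), against 36.3%. Of the 33 lower genes, 26 had a window, and 1 of the 26 (3.85%), STARD3NL, held an E2F octamer, 18 (69.2%) GGGCGG against 60%, and 5 (19.2%) AGAACA against 10.9%. Letters of TTTCCCGC and GGGCGG can share bases. A match is no evidence of binding, and no share was tested. The window of TYMS, on the plus strand at chr18:657403-657702, is shown with its E2F octamer in capitals (in reverse). TYMS belongs to the nucleotide list, where 2 of 19 promoters held an octamer, so it does not stand for that list or for the E2F list. The window of CDC20, of the mitosis list, on the plus strand at chr1:43358731-43359030, is shown with CCAAT in capitals.
TYMS: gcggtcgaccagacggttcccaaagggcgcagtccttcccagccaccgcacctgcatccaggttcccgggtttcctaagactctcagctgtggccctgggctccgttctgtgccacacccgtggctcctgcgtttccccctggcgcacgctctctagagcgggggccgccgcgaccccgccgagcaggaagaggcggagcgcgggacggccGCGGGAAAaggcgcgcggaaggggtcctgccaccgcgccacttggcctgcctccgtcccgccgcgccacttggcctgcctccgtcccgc
CDC20: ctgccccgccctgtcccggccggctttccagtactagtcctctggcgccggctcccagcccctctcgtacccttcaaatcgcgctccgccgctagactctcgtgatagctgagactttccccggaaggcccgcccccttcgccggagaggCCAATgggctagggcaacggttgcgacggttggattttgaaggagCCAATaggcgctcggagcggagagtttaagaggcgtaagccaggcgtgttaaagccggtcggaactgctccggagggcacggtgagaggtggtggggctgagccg

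Targets of the progesterone and glucocorticoid receptors gave 2 calls among 26 measured, TGFBR3 and LIFR, both lower, against 0.156% of all probe sets called lower. The list median was -0.05, with 14 of the 26 below 0. Its members were chosen with earlier results of these data known, so the 2 calls are no evidence about receptor targets as a group. The 5 hormone-induced genes also followed by RT-qPCR did not pass on the arrays. By RT-qPCR, the study reported that depleting CHD8 markedly weakened the induction of these genes by progestin. Not passing on the arrays is thus no evidence that they were unaffected. HSD11B2, which inactivates cortisol, read 7.01, 6.75 and 6.74 in siCt with R5020 and 6.43, 6.43 and 6.33 in siCHD8 (-0.43, SE 0.12, adjusted p = 0.139). NFE2L3, a transcription factor of the cap'n'collar family, read 5.42, 5.36 and 5.51 against 4.25, 4.92 and 4.71 (-0.81, SE 0.22, adjusted p = 0.141). The siCHD8 arrays of both lay below the siCt arrays, and the spread of NFE2L3 within siCHD8 was wide. IL6ST, the signal-transducing gp130, differed by -0.28 (adjusted p = 0.369), DUSP1, a phosphatase of MAP kinases, by -0.09 (adjusted p = 0.788), and FKBP5, a co-chaperone of steroid receptors, by -0.12 (adjusted p = 0.69) on a probe set shared with LOC285847. R5020 changed HSD11B2 by 2.83 in siCt cells and 2.18 in siCHD8 cells, and FKBP5 by 3.05 and 2.76.

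The progesterone receptor gene itself, PGR, read 7.43, 7.37 and 7.38 in siCt with R5020 and 6.89, 7.05 and 6.86 in siCHD8. The arrays did not overlap, and the difference of -0.46 (SE 0.11) had an adjusted p of 0.0941. With EtOH it was -0.19 (adjusted p = 0.522). R5020 lowered PGR by a log2 change of -1.23 in siCt cells and -1.50 in siCHD8 cells. CCND1, cyclin D1, also a known hormone target, read 8.88, 8.83 and 8.76 against 8.39, 8.35 and 8.37 (-0.45, adjusted p = 0.117) and differed by -0.52 with EtOH. Among 9 SERPINA genes SERPINA6 alone was called. SERPINA3, alpha-1-antichymotrypsin, read 4.35, 4.52 and 4.35 against 3.80, 3.54 and 3.60 (-0.76, adjusted p = 0.0912), and SERPINA11 was at 0.45 (adjusted p = 0.117).

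The remaining lists gave no call with R5020 beyond those named. Of the CHD family 10 genes were measured, with CHD8 the lowest (-0.62), CHD1L at -0.22, CHD4 at -0.16 and CHD3 at 0.17. SWI/SNF subunits (18 measured) had a median of -0.07 and lay between -0.20 and 0.10, with 0 at an unadjusted p under 0.05. In the list of CTCF, cohesin and known CHD8 partners (12 measured, median -0.17) SMC1A was at -0.47 (adjusted p = 0.125) and CTNNB1, beta-catenin, at -0.18. Of 18 p53 targets, MDM2, the ubiquitin ligase that degrades p53, read lower (-0.64, adjusted p = 0.0912) and TP53INP1 higher (0.42, adjusted p = 0.18), with a list median of 0.02. Wnt/beta-catenin targets (17 measured) had a median of 0.05.

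In the list of unfolded protein and amino acid stress (20 measured, median -0.07) values went both ways, DNAJB9 at 0.64 and HERPUD1 at 0.35 against SLC7A11, the cystine transporter, at -0.68 and PHGDH, of serine synthesis, at -0.44. Cholesterol and fatty acid synthesis (21 measured) had a median of -0.14 with MVK at -0.43, ribosomal proteins (18 measured) -0.15, heat shock genes (10 measured) -0.11, replication-dependent histones (20 measured) -0.13, estrogen receptor targets (18 measured) -0.05 and steroid receptors and coregulators (13 measured) -0.10. HOX genes (15 measured) had a median of 0.12. Only 3 of the 15 lay in the 2 brightest quintiles, and all probe sets of the 2 dimmest quintiles had medians of 0.05 and 0.09. The part of brightness in the HOX values was not tested. Interferon response (19 measured, median -0.01) and RNA interference machinery (12 measured, -0.01) were near 0. Apoptosis genes (15 measured) were at 0.00. The TGF-beta list (19 measured, median -0.10) held 1 rise, NREP, and 1 fall, TGFBR3, against 0.033% and 0.156% of all probe sets. This list too was chosen with earlier results of these data known, so its calls are no evidence about the pathway. Fibroblast (10 measured) and blood and endothelial markers (9 measured) had medians of 0.12 and 0.08 with 0 calls. The fibroblast list averaged 2.51 to 2.65 on the siCt arrays with R5020 and 2.66 to 2.73 on the siCHD8 arrays, the blood and endothelial list 1.98 to 2.11 and 2.08 to 2.19, levels within the 2 dimmest quintiles of probe sets, and their part in other results was not tested. Luminal (20 measured) and basal and mesenchymal markers (12 measured) had medians of 0.06 and 0.13, and steroid metabolism and transport (18 measured), with SERPINA6 as its call, -0.08.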

How the data were processed

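Total RNA of T47D-MTVL cells from 4 conditions (siCt or siCHD8, EtOH or R5020; 3 arrays each) was hybridised to Affymetrix gene arrays. The deposited log2 intensities per probe set were made by the authors with Command Console and RMA (background correction, quantile normalization, probe summary); the sources used here give no versions. Values were used as deposited, and 0 columns were left unused. Platform annotation pairs 19461 of 33297 probe sets with 1 symbol and 1753 with several; 12083 without a symbol were left out. Entrez IDs matched 19429 to RefSeq. A gene was taken by its brightest 1-symbol probe set. Identical values were held by 703 tested probe sets, none of them called.

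In limma 3.58.1 (R 4.3.3), lmFit estimated a mean per condition from 12 arrays, contrasts went through eBayes, and p-values of 21214 probe sets were adjusted by Benjamini-Hochberg; the scripts were tested on simulated data. Figures used matplotlib 3.10.9 and pandas 2.3.3 under Python 3.11.15. Named genes were CHD8, SERPINA6, NREP and TYMS, the 5 RT-qPCR genes, up to 15 rises and 15 falls, up to 4 members of lowest p per list and the 5 of lowest interaction p. These members and lists were chosen with earlier results of these data known. Precision is limited by 3 arrays a condition. Alternatives covered normalization, dim and unnamed probe sets, variance model, array weights, thresholds, the replicate block and left-out arrays. The study's ChIP-seq, reporter and RT-qPCR data were not analysed here.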

Additional observations from a re-analysis of the deposited data

How the results depend on the processing

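With R5020 the 40 calls became 26 (18 lower, 8 higher) under quantile normalization, 154 without dim probe sets, 2 over all probe sets with unnamed ones included, 64 with 1 probe set per gene, 121 with a trended and robust variance, 916 (645 lower, 271 higher) with array weights, 204 in a fit of the compared conditions alone, 185 at an adjusted p under 0.10, 2 at the stricter limits of 0.01 and 1.5-fold and 1 tested against a fold of 1.2. With left-out arrays the count was 1 to 105; without SiCt_R5020 replicate 1, 2 or 3 it was 1, 4 or 2, and without SiCHD8_R5020 replicate 1, 2 or 3 it was 3, 3 or 2. With EtOH the 62 became 94 under quantile normalization, 194 without dim probe sets, 15 over all probe sets, 169 with the variance model, 32 with array weights, 0 in the compared conditions alone (1638 at an unadjusted p under 0.05, limma), 177, 10 and 1 at the same 3 thresholds, and 12 to 53 with left-out arrays. The averaged effect (373) became 711 without dim probe sets, 167 over all probe sets, 606 with the variance model, 815 with array weights, 783, 40 and 2 at these thresholds, and 166 to 755 with left-out arrays. The difference of the siRNA effects gave 0 to 1 with left-out arrays, the 1 being LIFR without SiCHD8_R5020 replicate 1. CHD8 with R5020 passed without dim probe sets (-0.62, adjusted p = 0.0259), with the variance model (-0.62, adjusted p = 0.0424), array weights (-0.64, adjusted p = 0.0061) and the compared conditions alone (-0.62, adjusted p = 0.0403), and lay between -0.67 and -0.53 with left-out arrays. With EtOH it passed under quantile normalization (-0.59, adjusted p = 0.0372), without dim probe sets (-0.58, adjusted p = 0.0256) and with the variance model (-0.58, adjusted p = 0.0467), and lay between -0.70 and -0.50; the average lay between -0.66 and -0.55. The cause of these shifts was not tested. With the replicate number as a block, 5 genes were called with R5020, 20 with EtOH and 231 averaged. Deviations from the condition means on arrays of the same number had correlations of -0.25 to 0.20. With 3 arrays a condition these values cannot decide whether the numbers pair the arrays. No named gene changed sign in any setting; of 830 values of the called genes, 356 lost the call. Differences in dim probe sets lie close to background.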

Other observations

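Genes of motile cilia, the beating hairs of epithelia such as airway and oviduct, were gathered in a list of 36 after these values were seen, so the list has no test and its counts are no evidence about it. Of the 34 measured, 3 were called lower with R5020 (ROPN1L of the radial spokes, CDC20B of centriole production and LRRC46) and 1 higher (DNAH1), against 0.156% and 0.033% of all probe sets. CFAP47 (-0.74, adjusted p = 0.0514), CFAP126 (-0.74, adjusted p = 0.0912) and TMEM212 (-0.75, adjusted p = 0.112) also had their siCHD8 arrays below all siCt arrays, as did 15.3% of all probe sets. FOXJ1, the transcription factor that drives motile cilia, differed by -0.39 with R5020 (adjusted p = 0.352), by -0.86 with EtOH (adjusted p = 0.062) and by -0.62 averaged over treatments (limma, adjusted p = 0.0215). Averaged, 7 were called lower and 1 higher, against 1.39% and 0.372% of all probe sets. Over the list the median was -0.08 with R5020, 18 of 34 members were below 0, and 20 of the 34 had a mean log2 intensity under 4.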
